A study of Mus musculus with 51 samples.

Results

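Microglia, the resident macrophages of the brain, make up a small share of the cells of the prefrontal cortex, so their RNA is a minor component of whole tissue. The ethanol response of microglia was compared here with that of total homogenate from the same mice, to ask which microglial responses whole tissue hides, weakens or reverses. The quantity of interest is a difference of differences, the log2 fold change of chronic intermittent ethanol vapor (CIE) against control in microglia minus that in total homogenate. It was chosen by the codes in the sample titles and used 34 of 51 libraries, 1 microglia and 1 homogenate library from each of 17 mice. Of 24421 genes in the count tables, 10534 had enough counts in both preparations to be tested.

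All mice were adult male C57BL/6J. The 9 CIE mice were kept in ethanol vapor 16 h a day through 4 weekly cycles, with 15 to 20 mg/L in the chamber, after an injection of ethanol (1.6 g/kg, 8% w/v) with pyrazole (1 mmol/kg), an inhibitor of alcohol dehydrogenase. The 8 control mice received saline with the same dose of pyrazole and breathed air in the same kind of chamber. Total homogenate is the aliquot of the minced cortex set aside before dissociation. The rest was dissociated, freed of myelin and depleted of astrocytes with ACSA2 beads, and microglia were then captured with anti-CD11b beads. Monocytes, macrophages and neutrophils carry CD11b too. The 2 preparations therefore differ in handling as well as in cells, and the part of either in a level cannot be told apart.

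Several systems are known to shape the state of microglia. Type I interferon acts through a complex that holds STAT2 and IRF9 to switch on antiviral genes, heat shock factor 1 drives chaperone genes when proteins misfold, and the glucocorticoid receptor switches on genes such as Tsc22d3, Ddit4 and Zbtb16 in many cell types under stress hormone. Homeostatic genes such as P2ry12, Cx3cr1 and Trem2 mark resting surveillance and phagocytic function.

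The promoters below are those of chaperones called lower in microglia and not in homogenate, and of interferon-stimulated genes that rose in both preparations or in microglia. For none of the genes shown was the difference between the preparations itself called. They are RefSeq promoter windows of build GRCm38.p6 (mm10), 250 bases before to 50 bases after a transcription start, read 5′ to 3′ on the strand of the gene. Capitals mark a heat shock element (the letters GAA, any 2 bases, TTC, any 2 bases, GAA, on either strand, overlapping matches included) in the first 3 sequences and an interferon response motif (GAAA, any 2 bases, GAAA, on either strand) in the last 2.

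Hsph1, chr5:149636287-149636586, minus strand: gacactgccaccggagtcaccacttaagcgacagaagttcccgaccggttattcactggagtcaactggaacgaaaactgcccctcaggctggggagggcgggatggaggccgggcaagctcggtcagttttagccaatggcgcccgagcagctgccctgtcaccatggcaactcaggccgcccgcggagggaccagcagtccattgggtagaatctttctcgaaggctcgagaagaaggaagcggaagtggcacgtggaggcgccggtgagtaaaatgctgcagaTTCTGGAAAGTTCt

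Chordc1, chr9:18292017-18292316, plus strand: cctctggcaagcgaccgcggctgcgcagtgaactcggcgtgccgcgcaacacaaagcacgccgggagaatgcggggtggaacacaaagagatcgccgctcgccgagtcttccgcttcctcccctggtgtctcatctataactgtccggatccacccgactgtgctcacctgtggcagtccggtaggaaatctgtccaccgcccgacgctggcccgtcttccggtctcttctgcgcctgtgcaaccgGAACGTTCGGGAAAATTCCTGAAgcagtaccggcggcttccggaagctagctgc

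Hspd1, chr1:55087883-55088182, minus strand: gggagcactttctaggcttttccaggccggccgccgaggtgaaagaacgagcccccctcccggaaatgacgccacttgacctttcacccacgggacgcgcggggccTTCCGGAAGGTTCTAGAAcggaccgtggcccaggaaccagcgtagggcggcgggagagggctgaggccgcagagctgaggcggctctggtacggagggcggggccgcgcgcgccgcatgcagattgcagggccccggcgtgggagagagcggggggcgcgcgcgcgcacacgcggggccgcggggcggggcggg

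Ifit3, chr19:34583279-34583578, plus strand: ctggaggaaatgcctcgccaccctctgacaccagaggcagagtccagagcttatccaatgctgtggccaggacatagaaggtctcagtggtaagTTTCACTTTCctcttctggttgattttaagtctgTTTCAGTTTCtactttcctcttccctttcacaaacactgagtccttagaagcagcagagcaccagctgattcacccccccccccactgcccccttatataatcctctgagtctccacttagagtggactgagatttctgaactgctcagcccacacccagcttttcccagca

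Stat2, chr10:128270248-128270547, plus strand: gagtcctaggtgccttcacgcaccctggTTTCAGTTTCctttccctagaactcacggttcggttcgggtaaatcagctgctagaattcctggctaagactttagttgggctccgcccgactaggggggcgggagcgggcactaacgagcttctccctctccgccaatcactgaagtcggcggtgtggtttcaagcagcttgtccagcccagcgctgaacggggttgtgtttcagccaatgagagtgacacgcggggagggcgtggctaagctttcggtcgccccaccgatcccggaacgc

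The heat shock element stood in the promoter of 3 of the 9 chaperone genes lower in CIE microglia that had a promoter in the RefSeq table, or 33.3%, against 0.663% of the 27018 genes of that table. The interferon response motif stood in 7 of 16 interferon-stimulated genes higher in CIE microglia, or 43.8%, against 3.99% of all genes. Over all measured members the shares were 16.1% of 31 chaperone and 50% of 32 interferon-stimulated genes. Of the genes whose response differed between preparations, 30 with a positive and 13 with a negative difference had a promoter in the table. The interferon motif stood in 1 of the 30 (Vldlr) and none of the 13, and neither group held the heat shock element or the glucocorticoid response motif, which 0.537% of all genes carried. A looser NF-kB motif (GGG, any 5 bases, CC) stood in 53.5% of all genes, in 73.5% of the tested genes, in 76.7% of those with a positive and in 61.5% of those with a negative difference. These matches describe the letters only.

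Total counts over genes ranged from 571878 to 6026453 (median 2078096) in microglia and from 5042926 to 15594154 (median 8382733) in homogenate, so levels and responses in homogenate rested on more counts. All levels are CPM, counts scaled to a common library size, with TMM factors over both preparations. Responses come from a fit within each preparation and differences from a joint fit, so a difference can depart slightly from the subtraction. The joint fit uses 1 estimate of spread per gene for both preparations. The SE of a difference can then lie below that of the microglia response alone, as for S100a6 (0.554 and 0.58) and Plagl1 (0.309 and 0.327). For genes that vary more in microglia, intervals and adjusted p of the difference may therefore be too small. A gene is called when its adjusted p is under 0.05 (edgeR quasi-likelihood test, Benjamini-Hochberg adjustment over all 10534 genes). Homeostatic microglia genes identified the preparation. Their 35 members summed to 55130 to 71660 CPM in control and 40260 to 61970 CPM in CIE microglia, against 3394 to 4058 CPM in control and 3377 to 4103 CPM in CIE homogenate. Other cells also left RNA in the microglia libraries. The 28 neuron markers summed to a median of 432.7 CPM in control and 339.6 CPM in CIE microglia against 27180 CPM in control homogenate, and the library of CIE mouse 23 stood apart at 2582 CPM. The 19 neutrophil markers summed to 577.3 to 1206 CPM in control and 789.2 to 9479 CPM in CIE microglia, the highest being CIE mouse 41. The 18 oligodendrocyte and myelin markers summed to 4090 to 10810 CPM (median 6360) in control and 4101 to 13110 CPM (median 10060) in CIE microglia, so this preparation carried more of them than homogenate (median 3029 CPM in control and 3520 CPM in CIE). Of these 4 lists, 1 neutrophil marker was at 0 in every control homogenate library, and no other marker was at 0 throughout a group.

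**Figure D1:**
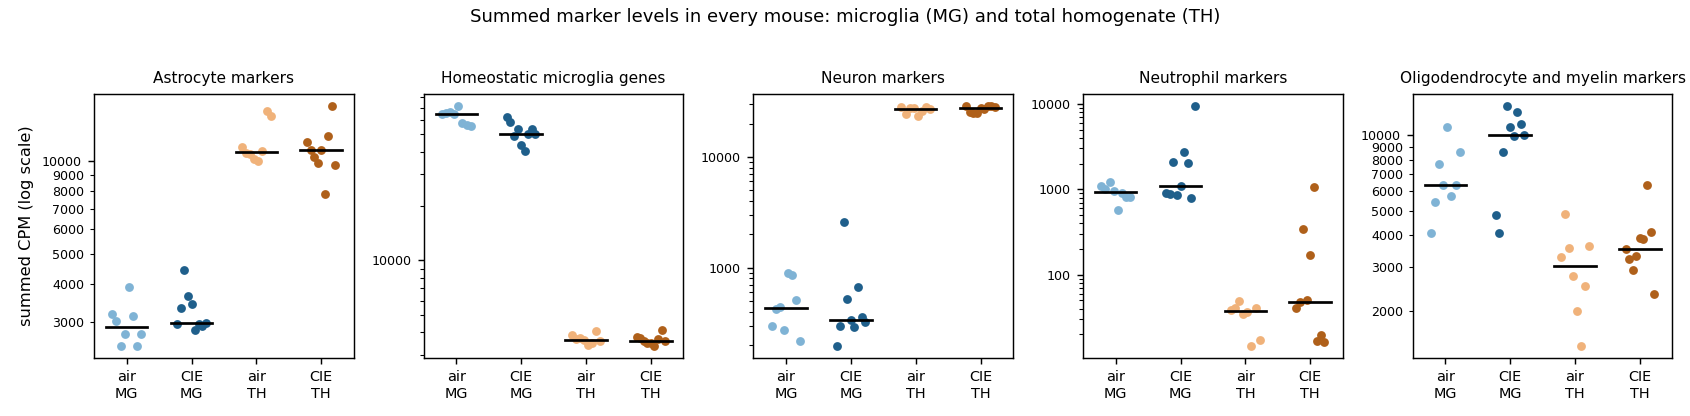
Summed CPM of 5 marker lists on a log scale, 1 point per library, for control (air) and CIE microglia (MG) and total homogenate (TH), with the median as a line. The homeostatic microglia genes separate the preparations, oligodendrocyte markers have a median of 10060 CPM in CIE against 6360 in control microglia, and single CIE microglia libraries stand high for neuron (2582 CPM) and neutrophil (9479 CPM) markers.

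More genes were called between CIE and control in microglia than in homogenate. In microglia 303 genes were called (2.88% of those tested), 197 higher (1.87%) and 106 lower (1.01%) in CIE. In homogenate 30 were called (0.285%), 23 higher (0.218%) and 7 lower (0.0665%), although these libraries were deeper. The microglia count depended on the RNA of other cells in these libraries. It was 34 with the neutrophil, 147 with the oligodendrocyte and 440 with the neuron marker level of the microglia libraries as a covariate. In such bulk samples, fewer cells of a type and less RNA per cell cannot be told apart. The 197 genes higher in CIE microglia had a median response of 1.03 there and of 0.27 in homogenate, and the 106 lower genes had medians of -0.52 and -0.04, beside medians of 0.00 in both preparations over all genes tested. These genes were chosen by their microglial response, so a smaller median in homogenate follows in part from the choice and is given as a description. The same holds in the mirror case. Genes called in homogenate had medians of 1.05 there and 0.73 in microglia among 8 genes at least 4 times higher in microglia, 0.54 and 0.12 among 5 genes at least 4 times lower in microglia, and 0.63 and 0.30 among the 17 genes between these levels. Of the 303 genes, 11 were also called in homogenate, and all 11 with the same sign. No gene was called in both preparations with opposite signs.

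The test of the difference itself called 56 genes (0.532%), 40 with a more positive response in microglia (0.38%) and 16 with a more negative one (0.152%), and 1091 genes had an unadjusted p under 0.05. The count was 129 with DESeq2 (79 above and 50 below 0) and 221 with a covariate for the mouse-number range (163 above and 58 below 0), and both sets held all 56 genes. Of the 303 genes called in microglia, 44 were among these 56, and none of the 44 was called in homogenate. The homogenate estimate of 33 of the 44 had the opposite sign and that of 11 the same sign and a smaller size. None had a larger size in homogenate. The other 12 called differences were Hmox1, Dbp and Slc1a4, called in homogenate only, and 9 genes called in neither preparation. A called difference was between 0.47 and 2.65 in size, with a median of 1.07. The other 259 microglial genes were not shown to respond alike. Of these, 213 had the same sign in homogenate, but the 95% interval of the difference lay within 0.5 of 0 for 9 of them and reached past 1 for 128. With the mouse as a block 5 genes were called (0.0475%), and these were Ddit4, Slc2a3, Hmox1, Hecw2 and Mxd1, the last named after its values were seen. A limma test on the log2 ratio of each mouse, a second form of the block, called 4 of these 5 and not Hecw2 (adjusted p = 0.080). The remaining 51 of the 56 had adjusted p between 0.055 and 0.19 with the block. The log2 ratio of microglia to homogenate of each mouse did not overlap between treatments for 4 of the 56 genes and for 7 of all 10534. Within the ranges of mouse numbers 03 to 08, 19 to 26 and 35 to 41, the difference had the same sign as over all mice for 53, 56 and 56 of the 56 genes. The genes were called on these same mice, so the shared sign follows in large part from the choice and is not replication.

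The counts depended on single mice. Leaving out 1 mouse gave 16 called differences without control 20, 19 without control 19 or 36, 26 without control 03, 27 without CIE 25, 28 without control 35 or CIE 26, 36 without CIE 23 and 37 without control 05, but 87 without CIE 06 and 103 without CIE 08. In microglia the count fell to 115 without control 20, 132 without control 36, 146 without CIE 26, 159 without control 35, 184 without CIE 25 and 198 without control 03, and was 489 without CIE 06 and 610 without CIE 08. In homogenate it ranged from 11 without control 35 and 12 without control 20 over 15 without CIE 08, 17 without control 36 and 18 without control 03 or 22, to 71 without CIE 41. Of the 56 genes, 14 were called in all 17 of these fits. With the oligodendrocyte marker level of the microglia libraries as a covariate 13 differences were called, 10 of them among the 56, and with the neutrophil marker level 5, all among the 56. With the neuron marker level, 78 were called. The part of these cells in the differences was not tested beyond these fits.

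**Figure D2:**
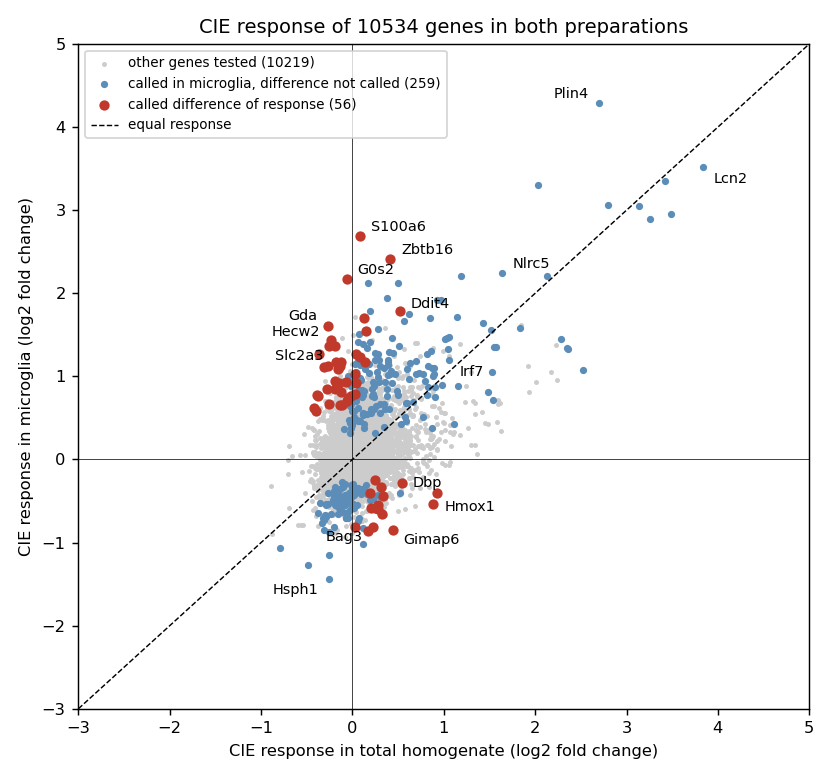
Log2 fold change of CIE against control in microglia (y axis) and in total homogenate (x axis) for the 10534 genes tested in both, with the 56 called differences in red, the 259 other genes called in microglia in blue and the line of equal response dashed. The red points lie near 0 on the x axis, at -0.42 to 0.92, while blue genes such as Irf7 and Lcn2 lie near the dashed line.

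The genes called in microglia were also grouped by their level in the 2 preparations, as a description in which the bands were not tested against each other. Of 1152 genes at least 4 times higher in microglia than in homogenate, 45 were called higher in CIE microglia, with a median response of 1.11 there and 1.03 in homogenate. All 45 had the same sign in homogenate, and none had a called difference. The 52 lower genes of this band had medians of -0.49 in microglia and 0.03 in homogenate, 22 had the same sign, and 10 had a called difference. Over all 1152 genes the medians were -0.11 in microglia and 0.16 in homogenate. In the band between these levels, 125 of 8281 genes were called higher in microglia, with medians of 0.97 and 0.20, and 23 of them had a called difference. The 54 lower genes of this band had medians of -0.53 and -0.08, 44 had the same sign in homogenate, and 1 had a called difference. Of 1101 genes at least 4 times lower in microglia, 27 were called higher there, with medians of 1.12 and 0.01, and 10 had a called difference. None of these 1101 genes was called lower in microglia. Thus 0, 26 and 14 of the positive and 12, 3 and 1 of the negative called differences fell in the bands of higher, middle and lower level in microglia. Of the last 14 genes, 9 were called without CIE 23. That microglia library had the most neuronal RNA and also the fewest total counts, 571878. Without CIE 41, the microglia library with the most neutrophil RNA, 13 were called. The fewest, 5, were called without control 19, 20 or 36 or CIE 25. Of the 12 negative differences in the band of higher level, 3 to 12 were called when 1 mouse was left out, the fewest without control 36.

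Ddit4, which encodes an inhibitor of mTORC1 induced by glucocorticoid, hypoxia and stress (chr10:59949675-59951770), showed a response that homogenate weakened. It was at 30.1 to 50.4 CPM (median 38.6, n = 8) in control and 75.7 to 203.9 CPM (median 132, n = 9) in CIE microglia, and at 32.2 to 47.1 CPM (median 39.3) in control and 41.5 to 75.4 CPM (median 55.4) in CIE homogenate. In microglia the groups did not overlap, while in homogenate they did, with all 9 CIE mice above the control median. The response was 1.78 ± 0.19 (log2, SE) in microglia (adjusted p = 8.1e-05) and 0.52 ± 0.11 in homogenate (adjusted p = 0.051), and the difference was 1.27 (95% interval 0.83 to 1.72, adjusted p = 0.0027, 0.0020 with the block). With the neutrophil marker level as a covariate it was 1.17 and not called (adjusted p = 0.069).

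Zbtb16, a zinc finger transcription factor and a classic glucocorticoid target, ranged from 2.87 to 13.8 CPM (median 4.63) in control and from 5.75 to 77.2 CPM (median 18.9) in CIE microglia, with all 9 CIE mice above the control median. In homogenate it was higher, at 51.6 to 88.0 CPM (median 63.4) in control and 51.7 to 121.5 CPM (median 84.8) in CIE. Its difference was 2.07 (95% interval 1.11 to 3.02, adjusted p = 0.028, 0.064 with the block). Tsc22d3, which encodes the glucocorticoid-induced leucine zipper, had the converse pattern. It was at 284.7 to 446.3 CPM in control and 261.2 to 620.9 CPM in CIE microglia, a response of 0.16 (adjusted p = 0.68). In homogenate the groups did not overlap, at 29.9 to 85.3 CPM in control and 101.6 to 170.2 CPM in CIE, a called response of 1.08 (adjusted p = 0.0091). The difference of -0.91 missed the threshold (adjusted p = 0.066, 0.055 with the block). Among all genes tested, 1.87% were called higher in microglia, 0.218% were called higher in homogenate, and 0.38% had a positive called difference. Of 28 measured glucocorticoid-responsive genes, 10 rose in microglia and 3 in homogenate, 2 differences were called, both positive, and the median responses were 0.39 and 0.41. Klf9, a Krüppel-like factor of this list, rose by 0.93 in microglia, and its difference of 0.64 was not called (95% interval 0.10 to 1.18).

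Hecw2, a HECT ubiquitin ligase known mainly from neurons (chr1:53806872-54195034), and Slc2a3, the glucose transporter GLUT3 (chr6:122727809-122802363), rose in microglia and not in homogenate. Hecw2 was at 3.26 to 9.22 CPM (median 7.98) in control and 6.16 to 31.7 CPM (median 17.1) in CIE microglia, against 58.2 to 94.9 CPM in control and 50.6 to 87.2 CPM in CIE homogenate. Slc2a3 was at 10.5 to 18.9 CPM (median 14.4) in control and 13.7 to 57.5 CPM (median 36.8) in CIE microglia, against 144.9 to 223.1 CPM in control and 129.2 to 198.3 CPM in CIE homogenate. For both, 8 of 9 CIE microglia libraries lay above the control median, the exception being CIE mouse 08 for Hecw2 and CIE mouse 40 for Slc2a3. The differences were 1.69 for Hecw2 (95% interval 1.15 to 2.24, adjusted p = 0.0016, 0.0385 with the block but 0.080 with limma on the ratio of each mouse) and 1.58 for Slc2a3 (95% interval 1.05 to 2.11, adjusted p = 0.0017, 0.0091 with the block). With the neutrophil marker level as a covariate the difference of Slc2a3 was 0.98 (adjusted p = 0.19), and that of Hecw2 was 1.60 (adjusted p = 0.048). Within mice 03 to 08, 19 to 26 and 35 to 41 the difference of Hecw2 was uneven, at 0.49, 2.72 and 1.08. That of Slc2a3 was 1.375, 1.62 and 1.365.

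Mxd1, which encodes a MAX partner that opposes MYC, had a response of 1.08 in microglia (adjusted p = 0.0049) and -0.16 in homogenate (adjusted p = 0.64), a difference of 1.27 (adjusted p = 0.0017, 0.024 with the block). Unlike Hecw2 and Slc2a3, Mxd1 was higher in microglia than in homogenate, with means of 70.5 and 33.3 CPM. Its difference with the neutrophil or oligodendrocyte marker level as a covariate is not given here.

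The largest differences belonged to S100a6, a calcium-binding protein (chr3:90612894-90614414), and G0s2, an inhibitor of the lipase ATGL that slows breakdown of lipid droplets. S100a6 was at 0 to 6.57 CPM (median 1.74) in control and 0.996 to 41.7 CPM (median 7.64) in CIE microglia, with 8 of 9 CIE mice above the control median, while homogenate stayed between 9.11 and 18.9 CPM over both treatments. G0s2 was at 0 to 7.51 CPM (median 3.49) in control and 5.28 to 48.5 CPM (median 9.49) in CIE microglia, and between 2.08 and 5.56 CPM in homogenate. Their differences were 2.65 (95% interval 1.53 to 3.78) and 2.25 (95% interval 1.20 to 3.30), and neither was called with the block (adjusted p = 0.072 and 0.095). With the neutrophil marker level as a covariate they were 0.65 (adjusted p = 0.70) and 0.66 (adjusted p = 0.68). Gda, which encodes guanine deaminase, had a difference of 1.91 and one of 0.36 with that covariate. Within mice 03 to 08 the difference of Gda was -0.07.

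**Figure D3:**
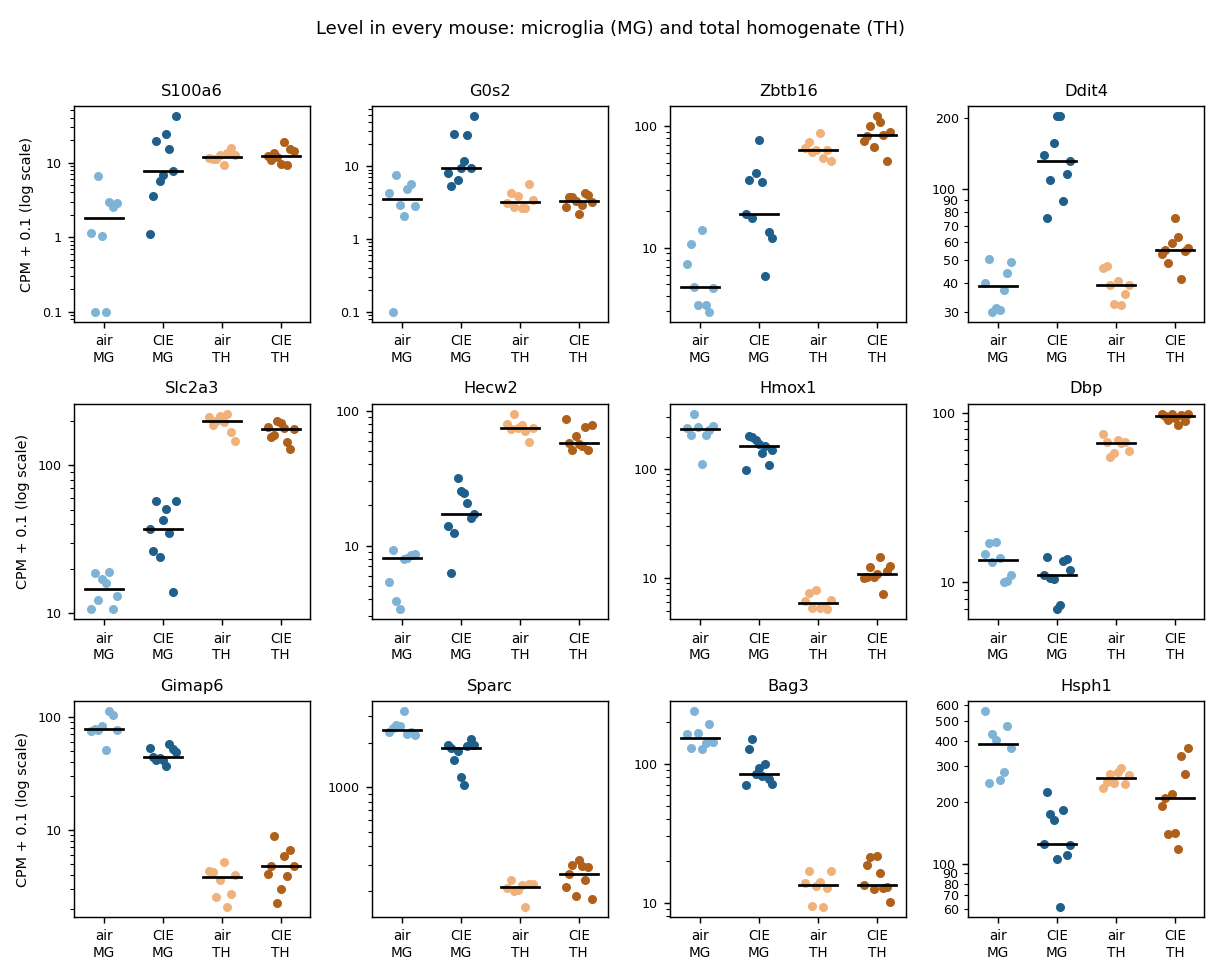
CPM of 12 genes in every mouse, on a log scale with 0.1 added, for control (air) and CIE microglia (MG) and total homogenate (TH), with the group median as a line. Ddit4 separates the treatments in microglia (75.7 to 203.9 against 30.1 to 50.4 CPM), Dbp separates them in homogenate, and Hmox1 lies lower in CIE microglia and higher in CIE homogenate.

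Further genes with a large positive difference were higher in homogenate than in microglia, apart from Tppp3. Plagl1, a zinc finger transcription factor, had a difference of 1.67, Rnf144a, a RING-type ubiquitin ligase, of 1.65, and Ogdhl, a subunit of an oxoglutarate dehydrogenase-like enzyme, of 1.61. Ptprf, a receptor tyrosine phosphatase, had 1.46, Adrb1, the beta-1 adrenergic receptor, 1.41 and Tppp3, a tubulin-binding protein, 1.41. All 6 genes rose in microglia, by 1.11 to 1.71. In homogenate none was called. Its estimates were -0.25 for Plagl1, -0.37 for Rnf144a (adjusted p = 0.095), -0.31 for Ptprf and -0.27 for Adrb1, and 0.13 for Ogdhl and 0.15 for Tppp3. Adrb1 illustrates the pattern, at 15.8 to 50.3 CPM (median 22.1) in control and 27.9 to 94.6 CPM (median 55.2) in CIE microglia, against 54.3 to 83.0 CPM (median 64.6) in control and 34.4 to 77.8 CPM (median 52.9) in CIE homogenate. Plagl1 rested on few microglia counts, 64 over the 8 control and 210 over the 9 CIE libraries. With the block their adjusted p was 0.055, or 0.16 for Ogdhl. With limma on the ratio of each mouse it was 0.080 for Ptprf and Adrb1, 0.11 for Rnf144a, 0.12 for Tppp3, 0.23 for Plagl1 and 0.24 for Ogdhl. With the oligodendrocyte marker level as a covariate the difference of Adrb1 was 1.67 (adjusted p = 0.0031), that of Plagl1 1.08 (adjusted p = 0.23), that of Tppp3 0.81 (adjusted p = 0.26), that of Rnf144a 1.16 (adjusted p = 0.11), that of Ogdhl 1.145 (adjusted p = 0.30) and that of Ptprf 1.20 (adjusted p = 0.078). With the neutrophil marker level Adrb1 was called (1.56, adjusted p = 0.042), while Rnf144a (1.01, adjusted p = 0.31), Tppp3 (0.91, adjusted p = 0.40), Ogdhl (1.44, adjusted p = 0.31), Plagl1 (1.59, adjusted p = 0.11) and Ptprf (1.40, adjusted p = 0.097) were not. Of the whole lists, astrocyte markers had 15 of 17 and oligodendrocyte markers 17 of 18 differences above 0, with median differences of 0.27 and 0.23, and neuron markers 13 of 20 with a median of 0.09, against 50.8% of all genes. None of these differences was called, and Mobp, a myelin protein gene, was the only one of these markers called in microglia (1.70, with 0.84 in homogenate and a difference of 0.87, adjusted p = 0.49). The part of these cells in the positive differences was not tested further.

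Hmox1, which encodes heme oxygenase 1, a stress-induced enzyme that breaks down heme (chr8:75093618-75100593), had estimates of opposite direction in the 2 preparations. It was at 112.7 to 324.9 CPM (median 233) in control and 99.6 to 203.2 CPM (median 163) in CIE microglia, with all 9 CIE mice below the control median. In homogenate it was at 5.07 to 7.63 CPM (median 5.79) in control and 7.07 to 15.7 CPM (median 10.9) in CIE, with all 9 above the control median. The response was called in homogenate (0.89 ± 0.14, adjusted p = 0.0091) but not in microglia (-0.54 ± 0.17, adjusted p = 0.087), and the difference was -1.41 (95% interval -1.86 to -0.95, adjusted p = 0.0016, 0.0091 with the block). It was -1.23, -1.29 and -1.57 within the 3 ranges of mouse numbers and was called with each of the 3 marker covariates (adjusted p = 0.0014 to 0.015). Of the 21 measured antioxidant and metallothionein genes, 1 rose in microglia (Gsr, glutathione reductase, by 1.34) and 2 in homogenate, and Hmox1 was the only called difference. That of Gsr was 1.21 (95% interval 0.47 to 1.95, adjusted p = 0.13).

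Dbp, a clock-controlled transcription factor (chr7:45705100-45710203), was called in homogenate and not in microglia. Its groups did not overlap in homogenate, at 54.5 to 74.9 CPM (median 66.6) in control and 85.1 to 98.9 CPM (median 95.3) in CIE. In microglia they overlapped, at 9.94 to 17.2 CPM in control and 6.81 to 14.1 CPM in CIE. Responses were 0.54 (adjusted p = 0.00074) and -0.29 (adjusted p = 0.48), with a difference of -0.81 (95% interval -1.17 to -0.46, adjusted p = 0.018, 0.064 with the block). Of 17 measured circadian clock genes none changed in microglia, 2 rose and 1 fell in homogenate (Arntl, which encodes the clock activator BMAL1, by -0.41, with a difference of 0.23 that was not called), and Dbp was the only called difference. Insig1, an endoplasmic reticulum protein that restrains sterol synthesis, also was called in homogenate and not in microglia (0.63, adjusted p = 0.0091), with a difference of -0.45 (95% interval -0.84 to -0.07, adjusted p = 0.36).

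Other negative differences came from genes that fell in microglia while their homogenate estimate was above 0. Gimap6, a GTPase of the immunity-associated family, was at 50.4 to 112.6 CPM (median 77.4) in control and 36.8 to 57.0 CPM (median 44.0) in CIE microglia, against 1.97 to 5.04 CPM in control and 2.16 to 8.64 CPM in CIE homogenate, a difference of -1.27 (95% interval -1.82 to -0.72, adjusted p = 0.019). Sparc, a matricellular protein that microglia release, did not overlap in microglia, at 2249 to 3260 CPM (median 2430) in control and 1033 to 2128 CPM (median 1849) in CIE, and overlapped in homogenate, at 156.1 to 237.6 CPM in control and 177.1 to 321.3 CPM in CIE. Its difference was -0.86 (95% interval -1.25 to -0.47, adjusted p = 0.025). Adamts1, a secreted metalloprotease, also did not overlap in microglia, at 178.4 to 329.4 CPM in control and 80.2 to 164.5 CPM in CIE, and had a difference of -1.01 (adjusted p = 0.049). The same pattern held for Tmem176a, a membrane protein of myeloid cells (-0.96), Arrdc4, an arrestin-domain protein (-0.84), Pmp22, a membrane protein best known from peripheral myelin (-0.82), Abcb4, a phospholipid transporter (-0.80), and Rgs3, a regulator of G protein signaling (-0.78). These 5 genes fell in microglia by 0.55 to 0.82 in size, and their homogenate estimates were 0.03 to 0.32, none of them called. Nupr1, a stress-induced nuclear protein, was called in neither preparation, at -0.40 in microglia and 0.92 in homogenate (adjusted p = 0.092), and its difference was -1.32 (adjusted p = 0.042). None of the differences in this paragraph was called with the block (adjusted p = 0.055 to 0.16).

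**Figure D4:**
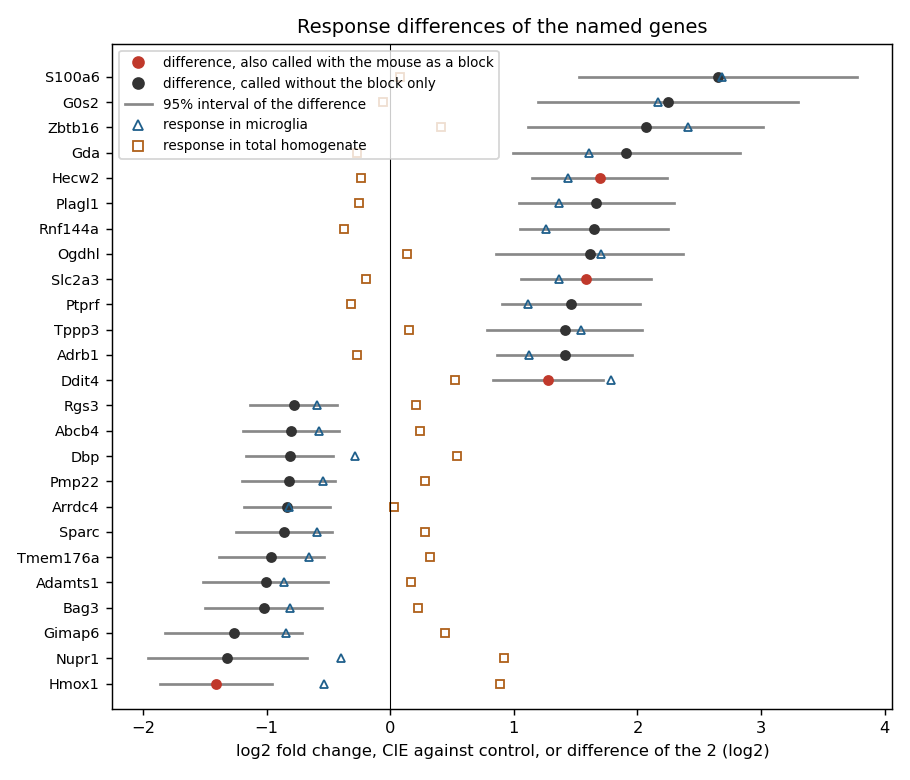
Difference between the microglia and the homogenate response with its 95% interval for the 25 named genes with a called difference (red where also called with the mouse as a block in edgeR), with the separate response in microglia (triangles) and in total homogenate (squares), all on the log2 scale. Homogenate responses lie between -0.37 and 0.92. Every gene drawn with a negative difference, Hmox1 and Dbp among them, has a positive homogenate and a negative microglia estimate.

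How far each of these calls rested on single mice differed. Hecw2, Plagl1, Rnf144a, Slc2a3, Ptprf, Adrb1, Ddit4 and Hmox1 were called without any 1 of the 17 mice. S100a6 was lost without control 20 or 36, Arrdc4 without control 36, Tmem176a without control 19, and Dbp without control 20, while Gimap6 was lost without control 19, 20, 35 or 36 or CIE 26. The remaining 12 (G0s2, Zbtb16, Gda, Ogdhl, Tppp3, Nupr1, Bag3, Adamts1, Sparc, Pmp22, Abcb4 and Rgs3) were called in 5 to 10 of the 17 fits and each was lost without control 20, without control 35 and without control 36. Of the 25 named called differences, 3 were called with the neutrophil covariate (Hecw2, Hmox1 and Adrb1) and 5 with the oligodendrocyte covariate (these 3, Ddit4 and Slc2a3). No sign changed in these fits, which used the same mice on which the genes were called.

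Interferon-stimulated genes rose in both preparations, and no difference was called. The share of all genes tested that was called higher was 1.87% in microglia and 0.218% in homogenate. Of 42 measured type I interferon-stimulated genes, 21 rose in microglia, 7 rose in homogenate and none fell, and the median responses were 0.69 and 0.70 with a median difference of -0.04. The 53 genes of the list summed to 1809 to 2155 CPM in control and 2328 to 3485 CPM in CIE microglia, which do not overlap, and to 343.8 to 479.1 CPM in control and 399.9 to 821.7 CPM in CIE homogenate. Irf7, the master regulator of type I interferon induction, was at 8.90 to 33.8 CPM (median 16.2) in control and 21.1 to 67.3 CPM (median 41.8) in CIE microglia, and at 3.35 to 6.27 CPM (median 3.60) and 4.96 to 12.5 CPM (median 8.02) in homogenate. It was called in both (1.20 and 1.06), and the difference was 0.15 (95% interval -0.47 to 0.77). Ifit3, an antiviral protein whose promoter is printed above, rose by 1.12 and 0.83, with a difference of 0.30 (95% interval -0.22 to 0.82), though a near-identical neighbor, Ifit3b, may share its reads. The difference of Ifit2, a related antiviral gene, was 0.85 (95% interval 0.31 to 1.39, adjusted p = 0.15) and that of Stat2 was 0.74 (95% interval 0.27 to 1.21, adjusted p = 0.16). Stat2 rose in microglia, from 38.6 to 98.6 CPM (median 69.3) in control to 82.0 to 162.1 CPM (median 131) in CIE, and had 35.1 to 58.5 CPM in control and 30.6 to 74.0 CPM in CIE homogenate. Slfn2, a Schlafen protein of immune cells, was called in both and had the larger estimate in homogenate (0.72 and 1.54, difference -0.80, adjusted p = 0.40).

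Interferon-inducible GTPases and MHC genes had larger median responses in homogenate, without a called difference. Of 11 measured GTPases 5 rose in microglia and 2 in homogenate, with median responses of 0.78 and 1.30. Irgm1, a regulator of this family, did not overlap between treatments in either preparation, at 18.8 to 46.1 CPM in control and 50.1 to 107.5 CPM in CIE microglia and at 7.53 to 11.3 CPM in control and 12.7 to 31.6 CPM in CIE homogenate. Its responses were 0.88 and 1.16. Igtp (IRGM3) was called in homogenate only (1.58, adjusted p = 0.026), with 0.46 in microglia and a difference of -1.12 (95% interval -1.84 to -0.40, adjusted p = 0.16). Gbp4, a guanylate-binding protein, rose in microglia by 1.65, with 1.43 in homogenate and a difference of 0.21. Of 20 MHC class I and peptide loading genes 4 rose in microglia and 1 in homogenate, with medians of 0.33 and 0.71. Tap1, the peptide transporter, was called in both (1.35 and 1.55, difference -0.18, 95% interval -0.90 to 0.54), and Nlrc5, the MHC class I transactivator, in microglia alone (2.24, with 1.63 in homogenate, adjusted p = 0.097). The 7 measured MHC class II genes had medians of 0.93 and 2.01 and no call in either preparation. All 11 genes of that list summed to 2723 to 4610 CPM in control and 2456 to 5748 CPM in CIE microglia, and to 93.3 to 185.0 CPM in control and 91.6 to 823.1 CPM in CIE homogenate.

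Of the other genes called in both preparations, Xdh, xanthine dehydrogenase, rose by 1.56 in microglia and 1.52 in homogenate, Lgals3bp, a secreted galectin-binding glycoprotein, by 0.75 and 0.90, and Cdh19, a cadherin of the oligodendrocyte lineage, by 1.27 and 0.82. Their differences were 0.07 (95% interval -0.70 to 0.85), -0.14 (95% interval -0.52 to 0.25) and 0.47 (95% interval -0.21 to 1.16). Cebpd, a C/EBP transcription factor of inflammatory responses, rose by 0.42 in microglia, from 33.6 to 41.7 CPM in control to 37.8 to 63.6 CPM in CIE, and was at 2.39 to 5.53 CPM in control and 4.24 to 16.6 CPM in CIE homogenate (1.11, adjusted p = 0.11). Its difference was -0.66 (95% interval -1.24 to -0.08, adjusted p = 0.38).

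Chaperone genes fell in microglia and 1 fell in homogenate. Of 38 measured heat shock proteins and chaperones, 11 fell in microglia and 1 in homogenate (Hspa1a), none rose, and the median responses were -0.38 and -0.07, with 6 of the 38 differences above 0. Of all genes tested, 1.01% were called lower in microglia and 0.0665% in homogenate, so fewer calls in homogenate were not particular to this list. Hsph1, a co-chaperone of the HSP70 system (chr5:149616843-149636498), did not overlap in microglia, at 249.0 to 559.5 CPM (median 385) in control and 61.4 to 225.2 CPM (median 125) in CIE, a response of -1.44 ± 0.22 (adjusted p = 0.0029). In homogenate its CIE range enclosed the control range, 118.6 to 370.5 CPM against 234.9 to 294.9 CPM, a response of -0.25 (adjusted p = 0.77). The difference was -1.20 (95% interval -1.80 to -0.59) and missed the threshold (adjusted p = 0.0535, 0.073 with the block). Bag3, the co-chaperone that directs HSP70 clients to autophagy, held the only called difference of the list, -1.02 (95% interval -1.50 to -0.55, adjusted p = 0.028, 0.055 with the block). It was at 127.5 to 239.4 CPM (median 154) in control and 70.7 to 151.7 CPM (median 84.4) in CIE microglia, and at 9.22 to 16.8 CPM in control and 9.94 to 21.6 CPM in CIE homogenate. The only member called in both preparations was Hspa1a, the inducible HSP70, at 808.7 to 2704 CPM in control and 234.9 to 1331 CPM in CIE microglia and at only 11.6 to 16.8 CPM in control and 8.23 to 11.6 CPM in CIE homogenate. Its responses were -1.27 and -0.49 and its difference -0.77 (95% interval -1.46 to -0.09, adjusted p = 0.38). Reads may be split between Hspa1a and its near-identical neighbor Hspa1b. The HSP90 co-chaperone Chordc1 (-0.60, difference -0.58, adjusted p = 0.0705), the mitochondrial chaperonin Hspd1 (-0.64, difference -0.52), the HSP40 protein Dnaja1 (-0.70, difference -0.65) and the cytosolic chaperone Hsp90ab1 (-0.52, difference -0.43) fell in microglia, with homogenate estimates of -0.11 to -0.01. The list as a whole was higher in microglia, at 11430 to 18770 CPM in control against 6088 to 7178 CPM in control homogenate. The 28 immediate early genes, which dissociation is known to induce, summed to 29020 to 53260 CPM in control microglia and 1788 to 2624 CPM in control homogenate, and none of the 26 measured was called in either preparation or by difference. The part of dissociation in the chaperone difference was not tested.

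Of the homeostatic microglia genes, a few fell in microglia and none in homogenate. Of 35 measured members 5 fell in microglia, and the medians were -0.22 and 0.06. Over all genes tested, 1.01% were called lower in microglia and 0.0665% in homogenate. The difference was above 0 for 2 of the 35, against 50.8% of all genes, and Sparc held the only called one. The median difference of the list, -0.27, was also that of all 1152 genes at least 4 times higher in microglia (-0.27). The shift was therefore not particular to homeostatic genes. Trem2, the phagocytic lipid receptor, did not overlap in microglia, at 499.8 to 832.9 CPM (median 538) in control and 272.8 to 450.0 CPM (median 415) in CIE, and was at 13.5 to 23.02 CPM in control and 9.89 to 18.5 CPM in CIE homogenate, with all 9 CIE mice below the control median in both. Its responses were -0.55 (called) and -0.29, and its difference of -0.25 was not called (95% interval -0.62 to 0.12). Fcrls, an Fc receptor-like scavenger receptor of microglia named after its values were seen, fell from 1610 to 2142 CPM in control to 265.7 to 1094 CPM in CIE microglia, and was at 35.1 to 58.2 CPM in control and 9.37 to 40.6 CPM in CIE homogenate. Here the homogenate estimate was close to that of microglia (-1.06 and -0.79, difference -0.26). Gpr34, a lysophosphatidylserine receptor, fell by 0.64 in microglia, with -0.38 in homogenate. Cx3cr1, the fractalkine receptor, was called in neither (-0.26 and 0.07, difference -0.32, 95% interval -0.67 to 0.02). Of the genes that the study names in its microglial networks, Cyfip1, a regulator of actin and translation, had a difference of -0.51 (adjusted p = 0.16) and Itgb5, an integrin beta chain, of -0.39 (adjusted p = 0.23).

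Of 25 measured activated and disease-associated microglia genes, 1 rose and 5 fell in microglia and none was called in homogenate, with medians of -0.17 and 0.04. Timp2, a metalloprotease inhibitor, fell by 0.51 (difference -0.41), the lysosomal protease Ctsd by 0.44 (difference -0.42) and the tetraspanin Cd9 by 0.39 (difference -0.41), and their differences were not called (adjusted p = 0.24 to 0.27). Of 20 lysosomal cathepsins and hexosaminidases 2 fell in microglia, Ctsd and Hexa, a subunit of beta-hexosaminidase (-0.50, difference -0.39), and 1 of the 20 differences was above 0. Cytosolic ribosomal protein genes had medians of -0.20 and 0.01, 2 of 75 differences above 0 and no call in any test. Of 14 complement genes 2 rose in microglia and none was called in homogenate. C4b, the complement C4 component, did not overlap in microglia, at 14.0 to 42.6 CPM in control and 54.7 to 189.1 CPM in CIE, a response of 1.92, and its homogenate estimate was 0.97 (adjusted p = 0.26) with a difference of 0.98 (95% interval 0.15 to 1.81, adjusted p = 0.36).

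**Figure D5:**
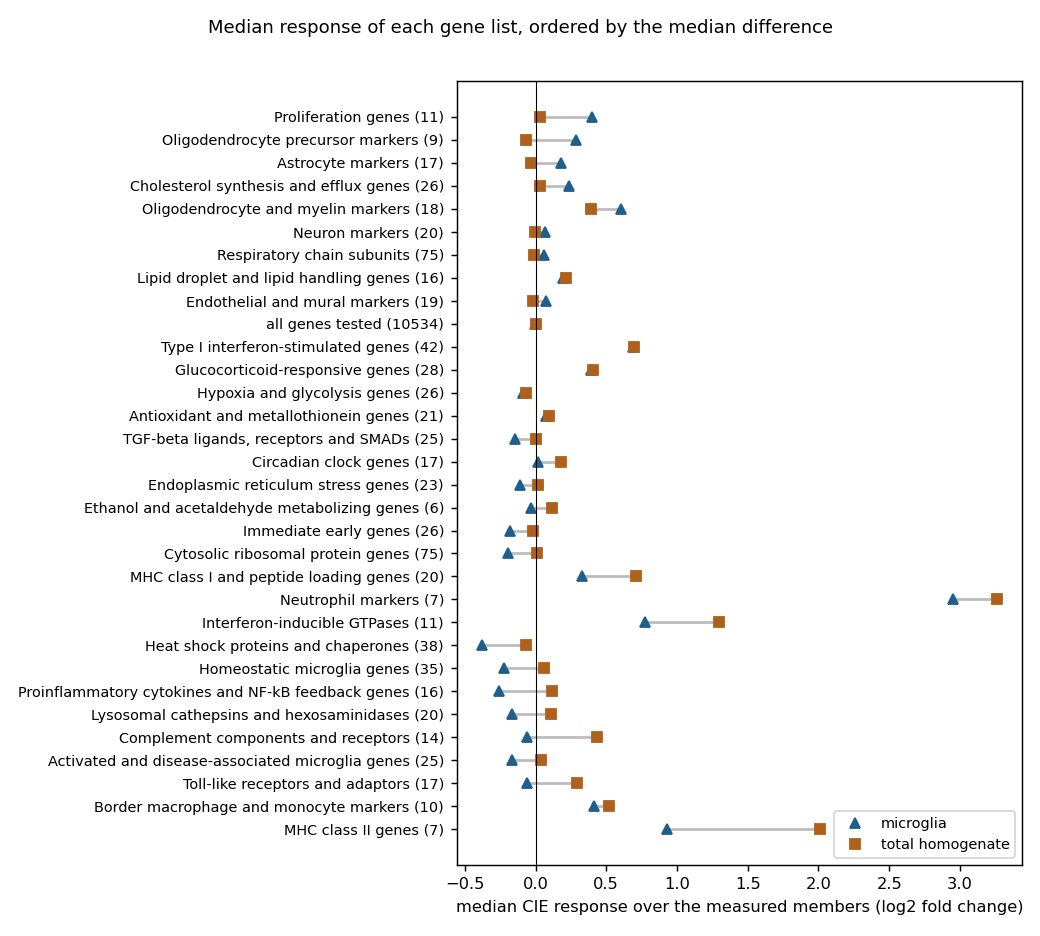
Median log2 fold change of CIE against control over the measured members of each gene list with at least 5 of them (number in parentheses) in microglia (triangles) and total homogenate (squares), ordered by the median difference. Type I interferon-stimulated genes coincide at 0.69 and 0.70, while chaperones (-0.38 and -0.07) and homeostatic microglia genes (-0.22 and 0.06) lie lower in microglia. Medians over all 1152 genes at least 4 times higher in microglia, not drawn here, were -0.11 and 0.16.

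The remaining lists held few calls. For all genes tested the shares called were 1.87% higher and 1.01% lower in microglia, and 0.218% and 0.0665% in homogenate. Counts of 1 or 2 in a list are therefore given as a description. Of 26 measured hypoxia and glycolysis genes 2 rose and 1 fell in microglia, and 2 differences were called, both positive. Of 16 lipid droplet and lipid handling genes 3 rose in microglia and 1 positive difference (G0s2) was called, with median responses of 0.20 and 0.21. Of 26 cholesterol genes 1 fell in microglia and 1 (Insig1) rose in homogenate, with medians of 0.24 and 0.04. Of 16 proinflammatory cytokine and NF-kB feedback genes 1 fell in microglia, with medians of -0.26 and 0.12. No member was called in any of the 3 tests among 25 TGF-beta genes (medians -0.15 and 0.00), 17 Toll-like receptor genes (-0.06 and 0.29), 23 endoplasmic reticulum stress genes (-0.11 and 0.02), 6 ethanol and acetaldehyde metabolizing genes (-0.03 and 0.11) and 75 respiratory chain subunits (0.06 and -0.01). The same held for 11 proliferation genes (0.40 and 0.03), 10 border macrophage markers (0.41 and 0.52), 9 oligodendrocyte precursor markers (0.29 and -0.07), 19 endothelial and mural markers (0.08 and -0.02), and the 1 lymphocyte marker and 1 red cell gene measured. Of 23 measured genes that the study names, 7 rose and 6 fell in microglia, 3 rose and 1 fell in homogenate and 1 negative difference was called. The study chose these on the same samples, so their direction is not independent evidence.

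Most neutrophil markers were called higher in microglia, but their summed level rose in some CIE libraries only. Of 7 measured in both preparations 6 rose in microglia and none was called in homogenate, with medians of 2.95 and 3.26. In microglia the list summed to a median of 928.7 CPM in control, with a highest of 1206 CPM. CIE mice 23, 26, 39 and 41 lay above that, at 2077, 2740, 2011 and 9479 CPM. The other CIE microglia libraries lay within the control range. The list summed to 14.8 to 48.8 CPM in control and 16.2 to 1069 CPM in CIE homogenate, and the median CIE library was at 48.1 CPM there and 1080 CPM in microglia, and the highest in homogenate was CIE mouse 26. CIE mouse 41, the highest in microglia, was the lowest in CIE homogenate. Plin4, a lipid droplet coat protein, had the largest microglial response of the named genes, 4.29 (adjusted p = 0.0076), from 0.932 to 14.9 CPM in control to 6.06 to 194.3 CPM in CIE. In homogenate it was at 0.704 to 7.56 CPM in control and 2.39 to 58.0 CPM in CIE (2.70, adjusted p = 0.11), and the difference of 1.66 had an interval from -0.69 to 4.00.

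Some microglial responses could not be tested in homogenate. Of 227 genes with enough counts in microglia but too few in homogenate, 40 were called in microglia (17.6%), 36 higher and 4 lower, against 3.47% of all 10761 genes measured in microglia. These 227 genes were kept by the filter in microglia alone, so a gene high in 1 treatment there could enter. Those with the smallest adjusted p included Cd300lf, an inhibitory receptor of myeloid cells, Cxcr2, the chemokine receptor of neutrophils, Pyhin1, an interferon-inducible nuclear protein, Irg1, the itaconate-producing enzyme of activated macrophages, Trem1, an amplifying receptor of neutrophils and monocytes, Mx1, an interferon-induced dynamin-like GTPase, and Ifi204, an interferon-inducible DNA sensor. Irg1 had 49 counts over the 8 control and 366 over the 9 CIE microglia libraries, at 0 to 3.91 CPM (median 1.94) and 3.52 to 35.1 CPM (median 11.0), and 1 and 4 counts in homogenate. Mx1 was at 3.26 to 9.93 CPM in control and 9.21 to 21.1 CPM in CIE microglia, and at 0.163 to 0.618 CPM in control and 0.0815 to 2.87 CPM in CIE homogenate. Cxcr2 had 31 and 411 counts in microglia, and 10 and 81 in homogenate. Neutrophil markers made up 6 of the 227 genes, and all 6 rose. The 7 genes named here rose in microglia, by 1.28 to 3.38 on the log2 scale. Of 4 activated microglia genes and 10 proinflammatory cytokine and NF-kB feedback genes in this set, 4 and none rose.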

How the data were processed

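Poly(A) RNA of CD11b-selected microglia and of unsorted tissue was sequenced. Per the labels and the study's methods, the authors demultiplexed with bcl2fastq 2.17, trimmed with cutadapt 1.8, mapped reads with STAR 2.5.0a to build mm10, used Picard 1.141 to drop duplicates, and obtained gene counts by HTSeq 0.6.1p1. The strand setting and the annotation release were not given in the sources used here, so overlapping and antisense genes are uncertain. The deposited values are raw counts per gene, without normalization. Rows that name no gene held 22.1% to 67.1% of a library and were left out. Counts cover counting error only, and total counts over genes were 571878 to 15594154.

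Genes were filtered on low counts within each preparation (filterByExpr), scaled by TMM over both, and tested with edgeR 4.0.16 (quasi-likelihood, R 4.3.3), with limma 3.58.1 and DESeq2 1.42.0 as alternatives. Adjusted p are Benjamini-Hochberg values over all tested genes, two-sided. The scripts were tested on simulated data. The mouse pairs the preparations, since both came from the same animal. Over the 17 mice the correlation of the deviations of the 2 libraries was -0.14 to 0.25, with a median of 0.07. The fit without the block was the main one.

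Named genes were the 12 largest positive and 12 largest negative called differences at 1 CPM or more in both preparations, the 6 genes called in both with the smallest adjusted p in homogenate, up to 4 members of each of 34 lists that were called in at least 1 test, genes the study names, and the 8 leading genes too low in homogenate. Not all are printed, some are not reported here, and Mxd1 and Fcrls were added after their values were seen. The comparison, lists and rules were chosen with earlier results of these data known. Promoters came from RefSeq (GRCm38.p6) and were matched by symbol. Alternatives covered scaling, filter, tool, depth, block, covariates and single mice. The neuron and oligodendrocyte covariates were chosen after seeing the data.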

Additional observations from a re-analysis of the deposited data

Results flagged for a closer look

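With the mouse as a block 5 differences were called. Without the block the response differed between microglia and homogenate, by the test of the difference itself, for 56 genes that include these 5. Of the named ones, the difference (log2, microglia minus homogenate) was 2.65 for S100a6, 2.25 for G0s2, 2.07 for Zbtb16, 1.91 for Gda, 1.69 for Hecw2, 1.67 for Plagl1, 1.65 for Rnf144a, 1.61 for Ogdhl and 1.58 for Slc2a3. It was 1.46 for Ptprf, 1.41 for Tppp3, 1.41 for Adrb1 and 1.27 for Ddit4. It was -1.41 for Hmox1, -1.32 for Nupr1, -1.27 for Gimap6, -1.02 for Bag3, -1.01 for Adamts1, -0.96 for Tmem176a and -0.86 for Sparc. It was -0.84 for Arrdc4, -0.82 for Pmp22, -0.81 for Dbp, -0.80 for Abcb4 and -0.78 for Rgs3.

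Single libraries stood far from the rest of their group by Dixon's test in 9 of 124 groups examined, and chance gives about 1 in 20. The neuron markers summed to 2582 CPM in microglia of CIE mouse 23, and the neutrophil markers to 9479 CPM in microglia of CIE mouse 41. In control microglia, G0s2 was at 0 in mouse 05, Plagl1 at 0 in mouse 03, Hmox1 at 112.7 CPM and Sparc at 3260 CPM in mouse 22. Adamts1 was at 80.2 CPM in microglia of CIE mouse 23. In homogenate of control mouse 35, Sparc was at 156.1 CPM and Pmp22 at 10.3 CPM.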

How the results depend on the processing

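The counts below are for the difference, microglia, homogenate and the 44 microglial genes with a called difference, in this order where several are given. DESeq2 gave 129, 612, 134 and 91, a covariate for the mouse-number range gave 221, 710, 62 and 164, and an adjusted p under 0.1 gave 120, 618, 73 and 92. With the mouse as a replicate block 5 and 4 genes were called for the difference and for the microglial genes, and with limma on the paired log2 ratio of each mouse 4 and 3, without Hecw2. Thinning homogenate to the microglia depth gave 31 for the difference, 10 in homogenate and 25 of the microglial genes. The neutrophil covariate gave 5, 34 and 1 and the oligodendrocyte covariate 13, 147 and 9 for the difference, microglia and the microglial genes. Without the 4 mice numbered under 10 there were 638 in microglia, 5 in homogenate and 67 of the microglial genes, and all 51 libraries in 1 model gave 96 differences. Leaving out 1 mouse gave 16 to 103, 115 to 610, 11 to 71 and 10 to 86. Over all alternatives the 25 named called differences were still called in 547 of 775 fits and reversed in none. Of these fits 425 left out 1 mouse. The genes were called on the same mice, so a kept sign follows in large part from the choice. Of the 25, 4 were called with the block, 3 with limma on the ratio of each mouse and 3 with the neutrophil covariate. Uncalled differences of 39 named genes reversed in 8 of 1209 fits. These were Irf7 (-0.11), Xdh (-0.61) and Gsr (-0.047) with the neutrophil covariate, Irf7 (-0.19) and Xdh (-0.43) with the oligodendrocyte covariate, and Xdh when 1 mouse was left out (-0.16 to 0.20). Apart from what the construction of an alternative shows, the cause was not tested. Microglia depth limits genes near 1 CPM.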
